A study of Mus musculus with 9 samples.

Results

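The Cyp3a cytochrome P450 genes read in these livers are 8 genes of mouse chromosome 5: Cyp3a11, Cyp3a13, Cyp3a16, Cyp3a25, Cyp3a41a, Cyp3a41b, Cyp3a44 and Cyp3a59. They are 8 of 11 genes annotated as Cyp3a, among 16012 genes with junction reads, and were listed by name. Each was followed through the sequencing reads that cross its annotated splice junctions, with uniquely mapped and multi-mapped reads kept apart. All 8 had multi-mapped reads and at least 3 uniquely mapped reads in all, and 5 of them (Cyp3a11, Cyp3a13, Cyp3a25, Cyp3a44, Cyp3a59) passed the filter on low counts. Cyp3a44 passed through its reads in the YAP libraries only, the group in which it was highest. The genes were listed with their values in these libraries known, so their levels and differences are given as a description, not as a test result. Calls by edgeR on them are counted below, and nothing is read from those counts.

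RNA came from the livers of C57BL/6 mice in 3 groups of 3 libraries. WT is the wild type, YAP carries an inducible YAP transgene, and YAP_Lsd1ko carries the transgene together with a knockout of Lsd1, the histone demethylase encoded by Kdm1a. Mice of every group, WT included, received Cre from a vector named AAV8-ApoE/ATT1-Cre and drank doxycycline at 30 mg per L for 14 days. A group with the Lsd1 knockout alone was not part of the set, and the labels used here give neither the age and sex of the mice nor the promoter behind the transgene. YAP is the transcriptional co-activator held back by the Hippo pathway. Whether each library came from an animal of its own is not in the labels. A p-value therefore weighs a difference against the spread among these libraries, which may be technical.

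CYP3A enzymes are haem proteins of the endoplasmic reticulum that oxidise steroids, bile acids and a large share of drugs. They take electrons from cytochrome P450 reductase (POR), often with help from cytochrome b5. In liver their genes are switched on by the nuclear receptors PXR (Nr1i2) and CAR (Nr1i3), which bind DNA together with RXR, and are supported by hepatocyte factors such as HNF4A. Several mouse Cyp3a genes also follow sex and age: Cyp3a41 and Cyp3a44 are known as female-biased genes and Cyp3a16 as a gene of the young liver, whereas Cyp3a11, Cyp3a13 and Cyp3a25 are expressed in adults of both sexes.

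Between 6910297 and 9925154 uniquely mapped junction reads were available per library, of which 6516711 to 9267028 lay on junctions of exactly 1 gene. Levels are given as CPM, such reads summed over the junctions of a gene and scaled to the size of the library, with TMM factors. They were divided by the number of junctions where genes are set against each other. This number was 13 for Cyp3a25, with a junction that skips exon 6 included, and 12 for every other member. Junctions without unique reads count too, such as intron 5 of Cyp3a25 and of Cyp3a59, which lowers the levels of both per junction. Multi-mapped junction reads, which are not unique to 1 place in the genome, took between 13.1% (YAP replicate 1) and 68.6% (WT replicate 1) of a library. Kdm1a stood at 15.8, 35.4 and 25.3 CPM in YAP_Lsd1ko, 30.1 to 38.3 CPM in WT and 36.7 to 46.2 CPM in YAP. Replicate 2 of YAP_Lsd1ko lay inside the WT range and just below the YAP range. It is therefore called the library labelled YAP_Lsd1ko replicate 2. Yap1 was higher in each YAP library (66.8 to 78.8 CPM) than in YAP_Lsd1ko (30.4 to 47.7 CPM) and WT (17.4 to 19.8 CPM). Replicate 3 lay between the other libraries of its group for 62.6% of all 10897 tested genes in WT, 48.6% in YAP and 60.9% in YAP_Lsd1ko. Among genes at least 4-fold apart between replicates 1 and 2 it did so for 148 of 148 in WT, 36 of 36 in YAP and 289 of 290 in YAP_Lsd1ko. Picking genes that far apart itself makes a value between them more likely. Where replicate 3 lay was also read for these genes, from 0 at replicate 1 to 1 at replicate 2. Its median position was 0.57 in WT (quartiles 0.54 to 0.61), 0.54 in YAP (0.50 to 0.61) and 0.44 in YAP_Lsd1ko (0.36 to 0.51). The cause of this middle position was not tested. Of the 8 Cyp3a genes replicate 3 lay between the others for 6, 3 and 6. Results are therefore also given without every replicate 3, a choice made after seeing the data.

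The 8 genes resemble each other closely enough that a short read may fit several of them. In coding sequence Cyp3a41a and Cyp3a41b were 99.9% identical, Cyp3a25 and Cyp3a59 97.5%, Cyp3a11 and Cyp3a41a 95.2%, Cyp3a11 and Cyp3a44 94.9%, and Cyp3a11 and Cyp3a16 92.8%. Cyp3a11 and Cyp3a25 were 76.1% identical, and Cyp3a13 matched each of the others at 75.1% to 76.8%. The sequences below are 76 coding bases around an exon-exon junction, 38 from each exon, 5′ to 3′ on the gene's strand (GRCm38), because 38 bases is the longest overhang recorded in the files. Capitals mark the bases that differ within a pair. They are shown because these junctions decide how the reads of the family can be assigned.

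Intron 5 of Cyp3a25 (chr5:145993362-145994864, minus strand) and intron 5 of Cyp3a59 (chr5:146094461-146096251, plus strand) join exon ends without any difference, whereas intron 6 (chr5:145993037-145993272 and chr5:146096341-146096576) has 2 differences.
Cyp3a25 intron 5: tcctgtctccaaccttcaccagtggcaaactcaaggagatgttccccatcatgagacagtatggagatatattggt
Cyp3a59 intron 5: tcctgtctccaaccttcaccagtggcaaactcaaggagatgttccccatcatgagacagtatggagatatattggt
Cyp3a25 intron 6: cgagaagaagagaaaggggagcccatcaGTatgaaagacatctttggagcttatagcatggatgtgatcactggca
Cyp3a59 intron 6: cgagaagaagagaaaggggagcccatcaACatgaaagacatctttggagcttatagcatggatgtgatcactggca

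Intron 11 of Cyp3a11 (chr5:145858884-145860311) and of Cyp3a16 (chr5:145440520-145441953), both on the minus strand, are bordered by exon ends with 1 difference, so 28 bases before and 38 bases after the junction are identical. Intron 6 of Cyp3a11 (chr5:145868685-145868955) and of Cyp3a44 (chr5:145794468-145794734), also on the minus strand, has 5 differences, all before the junction, and 10 bases before and 38 bases after it are identical.
Cyp3a11 intron 11: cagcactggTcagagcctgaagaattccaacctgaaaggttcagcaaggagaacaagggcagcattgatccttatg
Cyp3a16 intron 11: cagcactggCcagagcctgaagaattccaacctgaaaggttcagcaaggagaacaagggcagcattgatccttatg
Cyp3a11 intron 6: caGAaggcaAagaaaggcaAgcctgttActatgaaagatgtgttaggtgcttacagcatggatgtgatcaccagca
Cyp3a44 intron 6: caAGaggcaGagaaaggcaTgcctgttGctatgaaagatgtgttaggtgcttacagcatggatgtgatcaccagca

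Cyp3a11 (ENSMUSG00000056035, chr5:145854426-145879964, minus strand), the main drug-inducible Cyp3a gene of mouse liver, was the most read member in WT and was lower in every YAP library. The WT libraries, replicates 1 to 3, had 2282, 5587 and 4128 CPM, the YAP libraries 165, 1193 and 795 CPM, and the YAP_Lsd1ko libraries 2042, 113 and 1346 CPM. YAP and WT did not overlap, and neither did YAP_Lsd1ko and WT, whereas the YAP_Lsd1ko libraries spanned the whole YAP range. Group means (SD, n = 3) were 3999 ± 1656 CPM for WT, 717 ± 519 CPM for YAP and 1167 ± 977 CPM for YAP_Lsd1ko. The fitted difference between YAP and WT was a log2 fold change of -2.48 (SE 0.98), a level 5.57-fold lower. YAP_Lsd1ko differed from YAP by a log2 fold change of 0.70 (SE 0.93) and from WT by -1.78 (SE 0.95). The library labelled YAP_Lsd1ko replicate 2 was the lowest of all 9, and without it the log2 fold change against YAP was 1.23 and that against WT -1.24. All 12 introns of the gene were lower in YAP than in WT, with log2 ratios between -2.62 and -2.35, so no single junction carried the difference. Because whole liver was sequenced, fewer cells of a type and less RNA per cell cannot be told apart.

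The spread inside a group was wide for this gene. The highest library held 2.45 times the lowest in WT, 7.25 times in YAP and 18.0 times in YAP_Lsd1ko. In each group the library with the least Cyp3a11 (WT replicate 1, YAP replicate 1 and the library labelled YAP_Lsd1ko replicate 2) also had the least Cyp3a44. It likewise had the least Cyp2a4, a female-biased steroid hydroxylase read at 0.488, 1.60 and 0.331 CPM in those 3 libraries and at 7.97 to 495 CPM in the other 6.

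**Figure D1:**
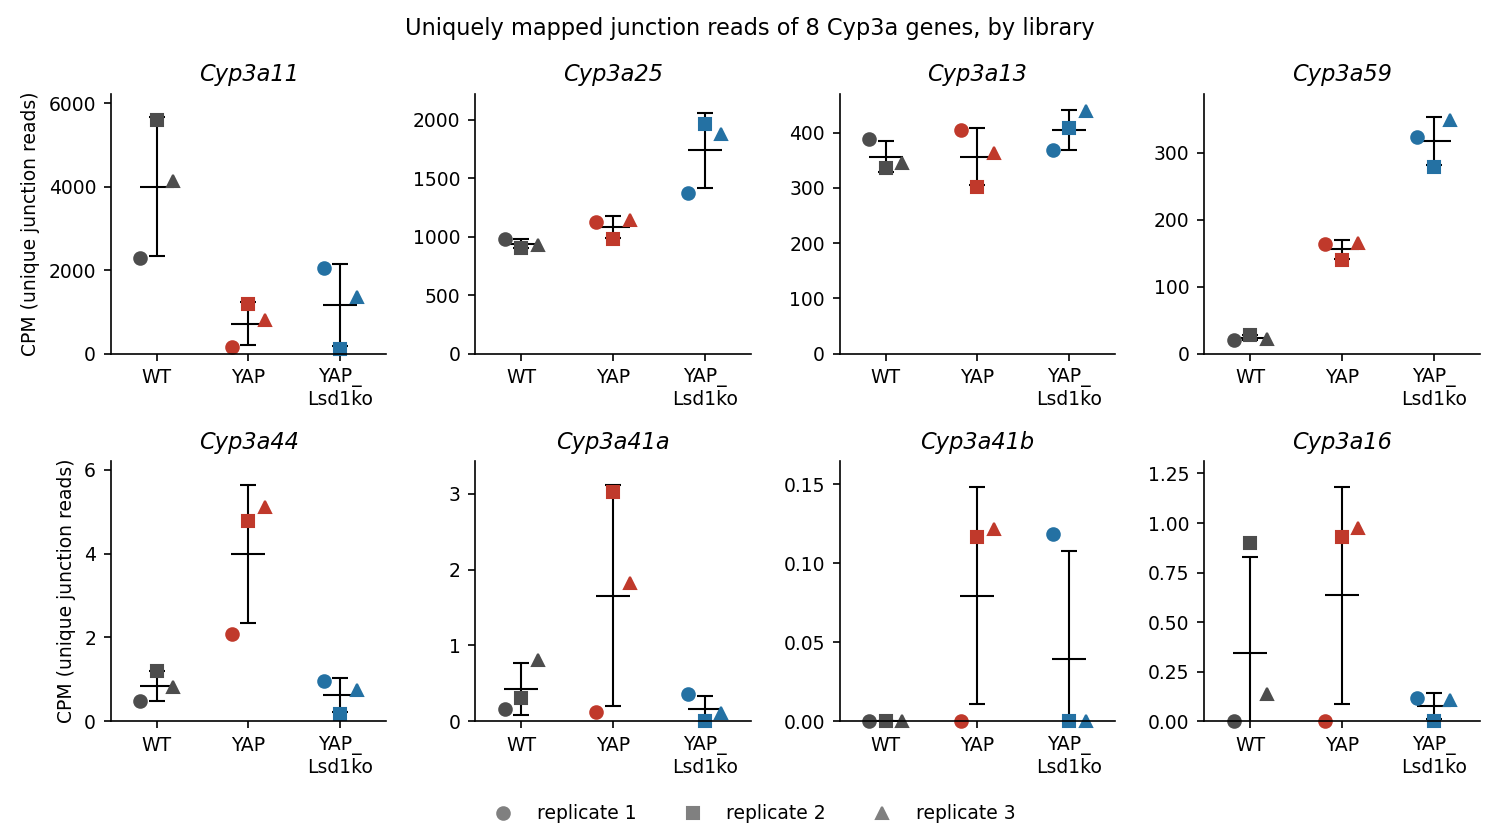
Uniquely mapped junction reads (CPM, a scale of its own per panel) of the 8 Cyp3a genes, with a circle, square and triangle for replicates 1 to 3 of WT, YAP and YAP_Lsd1ko and bars for the group mean ± SD. Cyp3a59 goes from 21 to 28.3 CPM in WT to 278 to 350 CPM in YAP_Lsd1ko without overlap, Cyp3a11 scatters widely below WT, and Cyp3a13 stays between 301 and 440 CPM.

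Cyp3a59 (ENSMUSG00000061292, chr5:146079257-146113287, plus strand), the close copy of Cyp3a25, was higher in both transgenic groups than in WT, where Cyp3a11 was lower. Levels of 21, 28.3 and 22.6 CPM were read for the WT libraries, of 163, 140 and 165 CPM for the YAP libraries, and of 324, 278 and 350 CPM for the YAP_Lsd1ko libraries. The groups were fully separated, with WT lowest and YAP_Lsd1ko highest. Means were 23.9 ± 3.86, 156 ± 14.1 and 317 ± 36.1 CPM (SD, n = 3). The log2 fold change was 2.70 (SE 0.16) between YAP and WT, a 6.50-fold higher level. It was 1.03 (SE 0.15) between YAP_Lsd1ko and YAP and 3.73 (SE 0.17) between YAP_Lsd1ko and WT, or 2.04-fold and 13.2-fold. The values came from 11 introns with unique reads, each of them higher in YAP than in WT and higher in YAP_Lsd1ko than in YAP. The library labelled YAP_Lsd1ko replicate 2 stood here with its group, unlike for Cyp3a11. With every replicate 3 left out the log2 fold changes were 2.62, 0.99 and 3.62.

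Cyp3a25 (ENSMUSG00000029630, chr5:145977194-146009618, minus strand), a Cyp3a enzyme of adult liver in both sexes, was about as high in YAP as in WT and higher in YAP_Lsd1ko. WT libraries had 981, 905 and 932 CPM, YAP libraries 1127, 979 and 1147 CPM, and YAP_Lsd1ko libraries 1374, 1967 and 1882 CPM. YAP and WT overlapped, by YAP replicate 2 and WT replicate 1, and each YAP_Lsd1ko library lay above all others. The means were 939 ± 38.7, 1084 ± 91.7 and 1741 ± 321 CPM (SD, n = 3). The log2 fold change was 0.21 (SE 0.19) in YAP against WT, 0.68 (SE 0.19) in YAP_Lsd1ko against YAP and 0.89 (SE 0.19) in YAP_Lsd1ko against WT, the last a 1.85-fold higher level. The library labelled YAP_Lsd1ko replicate 2, lowest for Cyp3a11, was the highest for Cyp3a25.

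Cyp3a13 (ENSMUSG00000029727, chr5:137892932-137921619, minus strand), known from both liver and intestine, was the most even member. It had 388, 336 and 345 CPM across the WT libraries, 404, 301 and 364 CPM across YAP, and 368, 409 and 440 CPM across YAP_Lsd1ko. The 3 groups overlapped in every comparison. The log2 fold changes were 0.00 (SE 0.16), 0.19 (SE 0.16) and 0.19 (SE 0.16) for YAP against WT, YAP_Lsd1ko against YAP and YAP_Lsd1ko against WT. The sign of the first was opposite in 6 of 17 alternatives, with values between -0.10 and 0.30.

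Cyp3a44 (ENSMUSG00000054417, chr5:145773983-145805874, minus strand), one of the female-biased members, had few unique reads. WT replicates 1 to 3 had 3, 8 and 6 of them, YAP 17, 41 and 42, and YAP_Lsd1ko 8, 1 and 7. As levels these were 0.488, 1.20 and 0.811 CPM, then 2.09, 4.77 and 5.11 CPM, then 0.949, 0.165 and 0.754 CPM. The YAP libraries did not overlap with either other group. The log2 fold changes were 2.23 (SE 0.54) in YAP against WT, -2.57 (SE 0.55) in YAP_Lsd1ko against YAP and -0.34 (SE 0.65) in YAP_Lsd1ko against WT. These values hold for unique reads alone: with multi-mapped reads added they became -2.13, 0.28 and -1.85, since most of those reads lie on intron 6, which Cyp3a11 shares.

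Cyp3a41a (ENSMUSG00000075551, chr5:145694049-145720136, minus strand) and Cyp3a41b (ENSMUSG00000075552, chr5:145558664-145584730, minus strand), the other female-biased pair, could hardly be read uniquely. For Cyp3a41a the WT libraries had 1, 2 and 6 unique reads, YAP had 1, 26 and 15, and YAP_Lsd1ko had 3, 0 and 1. Cyp3a41b had 3 in all 9 libraries together. Their multi-mapped reads were equal, library by library, at 9 of 12 introns. Over introns 1 to 10 of Cyp3a41a the WT libraries had 6, 42 and 16 multi-mapped reads, YAP had 8, 255 and 110, and YAP_Lsd1ko had 19, 2 and 17, so YAP replicate 2 was highest. YAP replicate 1, at 0.982 CPM, lay inside the WT range of 0.975 to 6.29 CPM, so the groups overlapped. Cyp3a16 (ENSMUSG00000038656, chr5:145436309-145469723, minus strand), the gene of the young liver, had 25 unique reads in all and at most 8 in a library. Apart from 3 counts of at least 6, in WT replicate 2 and YAP replicates 2 and 3, no library had more than 1.

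Set against each other per junction, Cyp3a11 and Cyp3a25 exchanged the first place. In WT the order was Cyp3a11 (333 ± 138 CPM per junction), Cyp3a25 (72.3 ± 2.98), Cyp3a13 (29.7) and Cyp3a59 (2.0 ± 0.322), and no library range overlapped with its neighbour's. In YAP the order of the means was Cyp3a25 (83.4 ± 7.06 CPM per junction), Cyp3a11 (59.8 ± 43.2), Cyp3a13 (29.7) and Cyp3a59 (13 ± 1.18), and the range of Cyp3a11 overlapped those of the other members. In YAP_Lsd1ko Cyp3a25 had 134 ± 24.7, Cyp3a11 97.3 ± 81.4, Cyp3a13 33.8 and Cyp3a59 26.4 ± 3.01 CPM per junction (SD, n = 3 throughout), again with Cyp3a11 spread from the lowest to the highest place. The other 4 genes were near 0 in all groups. Summed over the 8 genes, the level per junction averaged 437 ± 133 CPM for WT, 186 ± 34.0 CPM for YAP and 291 ± 63.9 CPM for YAP_Lsd1ko. The ranges were 300 to 566, 148 to 212 and 218 to 334 CPM, so YAP lay below both others and WT overlapped with YAP_Lsd1ko.

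The make-up of this sum shifted in the same way. Cyp3a11 made up 74.3 ± 9.74% of it in WT, 29.8 ± 19.0% in YAP and 30.0 ± 23.7% in YAP_Lsd1ko. Cyp3a25 made up 17.8 ± 6.62%, 46.1 ± 11.7% and 48.6 ± 19.2%. Cyp3a59 went from 0.474 ± 0.0946% in WT to 7.19 ± 1.88% in YAP and 9.25 ± 1.29% in YAP_Lsd1ko. These are shares of 1 sum, so they are not independent of each other.

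**Figure D2:**
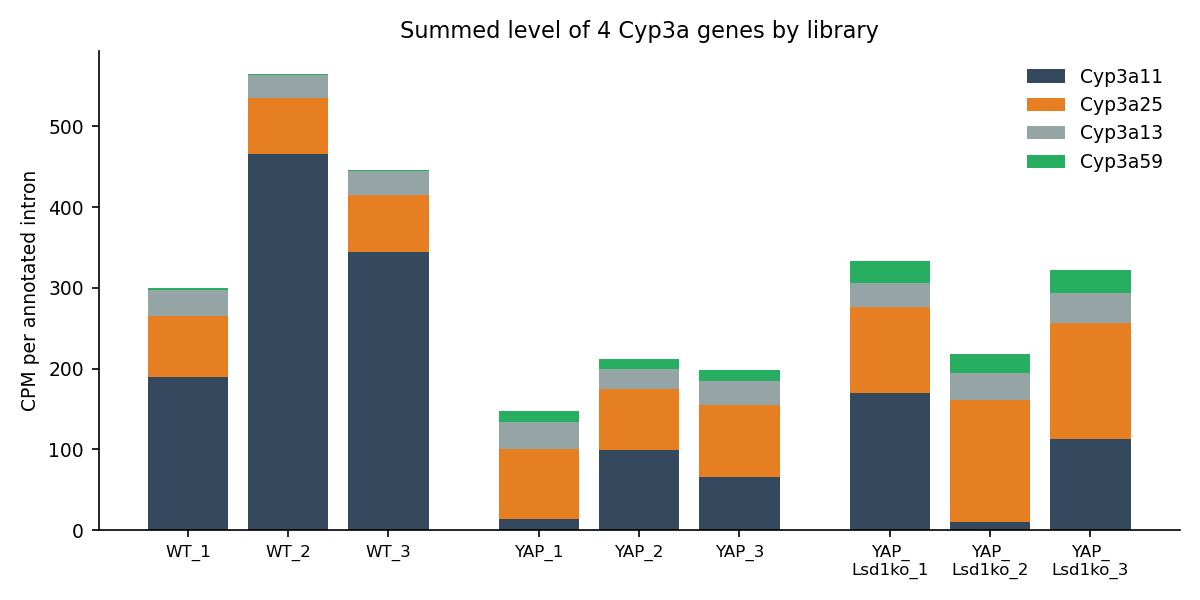
Level per junction (CPM per annotated intron, from uniquely mapped reads) of Cyp3a11, Cyp3a25, Cyp3a13 and Cyp3a59 in each of the 9 libraries, as stacked bars. Cyp3a11 fills most of each WT bar, at a mean of 74.3%, and only a sliver of YAP replicate 1 and of the library labelled YAP_Lsd1ko replicate 2.

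Within the Cyp3a25 and Cyp3a59 pair the proportion moved with the groups. Per junction, Cyp3a59 had 2.31, 3.39 and 2.62% of the level of Cyp3a25 across the WT libraries, 15.7, 15.4 and 15.6% across YAP, and 25.5, 15.3 and 20.1% across YAP_Lsd1ko. Each transgenic library was above every WT library, and the library labelled YAP_Lsd1ko replicate 2, at 15.3%, lay just under the YAP libraries. The genes lie head to head on opposite strands, with 69639 bases between their 5′ ends.

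Counts over the tested members read as follows against all 10897 tested genes, where called means an adjusted p under 0.05 in edgeR. In YAP against WT, 2 of 5 members were called higher (Cyp3a44 and Cyp3a59; all genes 7.44%) and 0 lower (all genes 10%), and the groups did not overlap for 3 (all genes 44.3%). In YAP_Lsd1ko against YAP, 1 was called higher (Cyp3a59; all genes 1.75%), 1 lower (Cyp3a44; all genes 0.367%), and 3 did not overlap (all genes 23.9%). In YAP_Lsd1ko against WT, 2 were called higher (Cyp3a25 and Cyp3a59; all genes 1.12%), 0 lower (all genes 0.927%), and 3 did not overlap (all genes 17.6%). The median log2 fold changes of the 5 were 0.21, 0.68 and 0.19. Since the members were listed from these same contrasts, nothing is read from these counts or from the calls over settings that follow. Cyp3a44 passed the filter through its YAP reads alone, so its calls in comparisons with YAP are not independent of that filter. Over 17 settings, the one described included, Cyp3a59 was called in 16, 11 and 16 of them for the comparisons in this order, Cyp3a44 in 10 for YAP against WT and 4 for YAP_Lsd1ko against YAP, and Cyp3a25 in 1 for YAP against WT, 2 for YAP_Lsd1ko against YAP and 5 for YAP_Lsd1ko against WT. Cyp3a11 was called lower in YAP against WT in 2. The comparisons share libraries: YAP serves in the comparisons with WT and with YAP_Lsd1ko, and WT in those with YAP and with YAP_Lsd1ko.

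Multi-mapped reads made up very unequal shares of the family. Over all 9 libraries they were 4.80% of the junction reads of Cyp3a13, 10.9% for Cyp3a11, 16.9% for Cyp3a25, 49.0% for Cyp3a59, 94.6% for Cyp3a44 and for Cyp3a41a, 99.5% for Cyp3a16 and 99.7% for Cyp3a41b. In 4 of the 8 genes (Cyp3a16, Cyp3a25, Cyp3a44, Cyp3a59) a single intron held most of them. Of the 11554 multi-mapped reads of Cyp3a59, 10029 lay on intron 5, the junction printed above without a difference from Cyp3a25. Cyp3a25 had 10029 there as well, the counts were equal in 9 of 9 libraries, and neither gene had a unique read on it.

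For Cyp3a16 5035 of 5049 multi-mapped reads fell on intron 11, which differs from Cyp3a11 by 1 base. WT replicates 1 to 3 had 514, 1415 and 1236 of them, YAP 57, 427 and 256, and YAP_Lsd1ko 610, 32 and 488. Cyp3a11 had 551, 1502 and 1311, then 65, 444 and 275, then 642, 32 and 520 multi-mapped reads on the same intron. The numbers for both genes thus ran side by side through the libraries. For Cyp3a44 2219 of 2325 multi-mapped reads fell on intron 6, against 2244 on intron 6 of Cyp3a11, and the counts differed by 9 at most in any library. Intron 12 held 400 multi-mapped reads in each Cyp3a41 gene, and its junction has 2 differences from that of Cyp3a11. The reads on these introns cannot be given to 1 gene from the files used here.

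**Figure D3:**
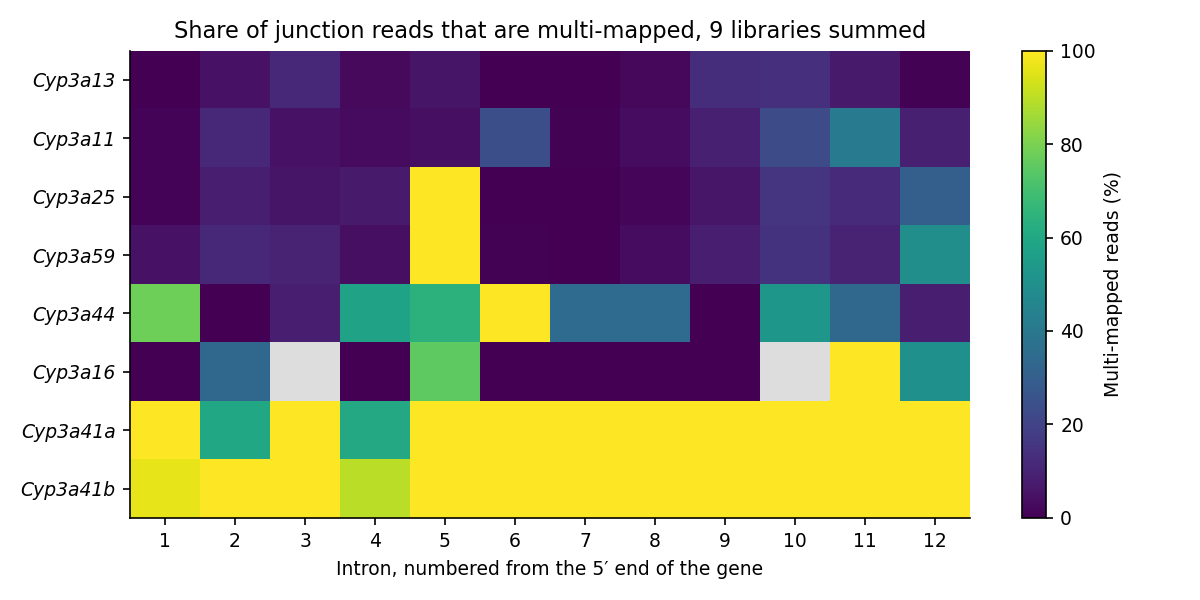
Multi-mapped share (percent of junction reads, all 9 libraries together) of introns 1 to 12 of the 8 genes, numbered from the 5′ end, as a colour from 0 to 100%, with introns without reads in grey. Intron 5 of Cyp3a25 and of Cyp3a59 is at 100%, while nearly all introns of the Cyp3a41 genes are close to 100% and all introns of Cyp3a13 are low.

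**Figure D4:**
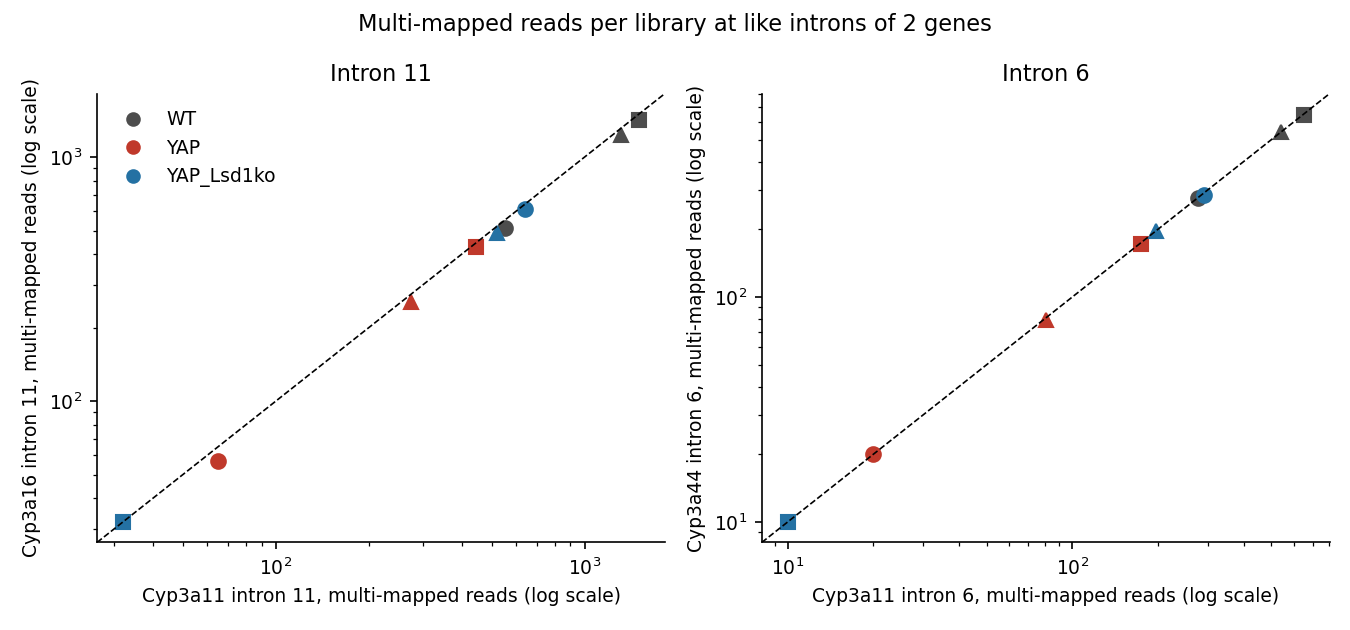
Multi-mapped reads per library (log scales) on intron 11 of Cyp3a16 and intron 6 of Cyp3a44 against the same intron of Cyp3a11, with a dashed line of equal counts, colours for groups and a circle, square and triangle for replicates 1 to 3. All points lie on or close to the line, from 32 reads for the library labelled YAP_Lsd1ko replicate 2 to 1415 and 1502 for WT replicate 2 on intron 11.

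The multi-mapped share was highest where exon ends were identical, and it did not fall evenly as differences grew. The 25 introns whose 76-base window was identical to that of another member had a median of 100% multi-mapped reads (23.9 to 100%). The medians were 8.64% for 35 introns with 1 to 2 differences, 10.6% for 16 introns with 3 to 5, and 2.49% for 19 introns with more. Most of the 25 are introns of Cyp3a41a and Cyp3a41b, counted in each gene, and most of the 19 are introns of Cyp3a13. The classes thus differ in their genes as well. The introns of a gene share its reads and are not independent of each other. Adding the multi-mapped reads to the unique ones took the Cyp3a59 log2 fold changes to 1.28 (YAP against WT), 0.87 (YAP_Lsd1ko against YAP) and 2.15 (YAP_Lsd1ko against WT), since the shared intron 5 then counts for both genes.

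Exon 6 of Cyp3a25 (chr5:145993273-145993361, 89 bases) was skipped in a larger share of reads in YAP_Lsd1ko. The skipping junction, from 145993037 to 145994864, is annotated in a transcript of the nonsense-mediated decay class, and the share is skipping reads over skipping reads plus unique reads of intron 6. It was 25.8% (95% Wilson interval 22.7 to 29.2), 25% (21.7 to 28.6) and 27% (23.8 to 30.4) in WT. In YAP it was 21% (18.5 to 23.7), 30.6% (27.6 to 33.8) and 26.2% (23.4 to 29.2). In YAP_Lsd1ko it was 42.3% (39.6 to 45.1), 32.7% (30.2 to 35.4) and 36.7% (34.4 to 39.0). The intervals cover counting error only. Each YAP_Lsd1ko library was above every other library, although the interval of the library labelled YAP_Lsd1ko replicate 2 overlapped that of YAP replicate 2. Group means were 25.9 ± 0.996%, 25.9 ± 4.82% and 37.2 ± 4.83% (SD, n = 3).

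The exon ends that the skipping junction joins are identical in Cyp3a25 and Cyp3a59 over the 76 bases. The matching Cyp3a59 junction, from 146094461 to 146096576, is in GENCODE M21 but not in STAR's annotation. It had 0 unique reads and 16 to 68 multi-mapped reads per library. The skipping reads of both genes therefore cannot be told apart, while Cyp3a59 itself was higher in YAP_Lsd1ko. With the intron 6 reads of both genes in the denominator, an alternative chosen after seeing the data, the WT libraries had shares of 25.3, 24.1 and 26.2%, the YAP libraries 18.6, 27.2 and 23.1%, and the YAP_Lsd1ko libraries 34.6, 28.7 and 31.3%. The YAP_Lsd1ko libraries stayed above all others.

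**Figure D5:**
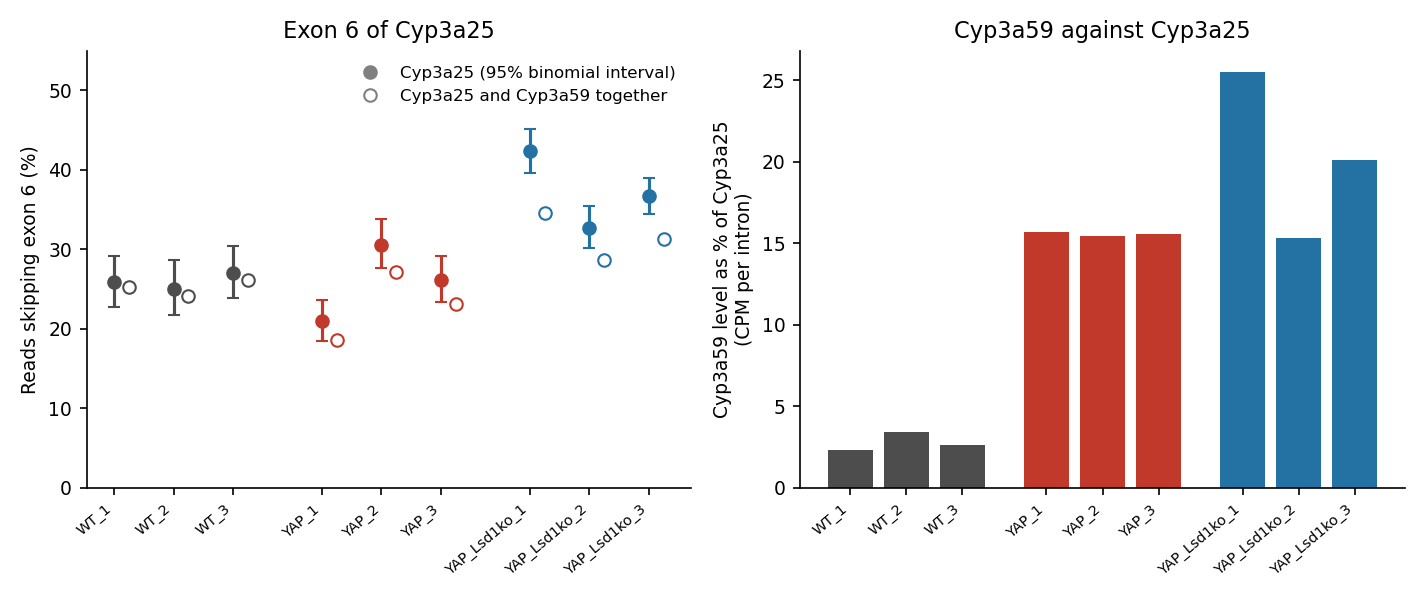
Left, share of Cyp3a25 exon 6 skipping (percent of reads) per library with 95% Wilson intervals (filled), and with the reads of both genes together (open). Right, Cyp3a59 level as a percent of Cyp3a25, per junction. The 3 YAP_Lsd1ko libraries hold the highest skipping shares, 32.7 to 42.3%, and every transgenic library exceeds the WT libraries on the right.

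The genes lie in a main cluster of 768009 bases (chr5:145345279-146113287, GRCm38), apart from Cyp3a13, which is 7423660 bases away. The cluster also holds Cyp3a57, not among the 8, with 4 to 22 unique reads per library. Genes flanking it, not chosen from their values, were read as well. Of the 8 nearest protein-coding genes 4 were tested (Zscan25, Zfp655 and Zkscan5 before it, Rnf6 after it), and 0 passed in any of the 3 comparisons. Of all genes 7.44% were higher and 10% lower in YAP against WT, 1.75% and 0.367% in YAP_Lsd1ko against YAP, and 1.12% and 0.927% in YAP_Lsd1ko against WT. With so few genes, 0 passing cannot be told from these shares. Around Cyp3a13, 5 neighbours were tested and 2 rose in YAP against WT (all genes 7.44%). These were the immune receptor genes Pilrb2 (log2 fold change 1.97, edgeR adjusted p = 0.0394) and Pilrb1 (1.77, adjusted p = 0.0157), whereas Pilra, Zcwpw1 and Azgp1 did not pass.

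The promoters of Cyp3a25 and Cyp3a59 are printed because they are 94.8% identical over 250 bases, while the levels of both genes moved by unlike amounts. The sequences are the 250 bases before the start (RefSeq, GRCm38.p6), chr5:146009619-146009868 on the minus strand and chr5:146079008-146079257 on the plus strand. Capitals mark AGGTCA on either strand, the core recognised by nuclear receptors, so TGACCT is the same motif on the other strand.
Cyp3a25 promoter: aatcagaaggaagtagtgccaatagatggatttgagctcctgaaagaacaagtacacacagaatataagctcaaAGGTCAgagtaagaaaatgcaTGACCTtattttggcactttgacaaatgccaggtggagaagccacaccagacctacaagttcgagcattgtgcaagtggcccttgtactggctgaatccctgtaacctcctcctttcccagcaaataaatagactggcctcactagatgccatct
Cyp3a59 promoter: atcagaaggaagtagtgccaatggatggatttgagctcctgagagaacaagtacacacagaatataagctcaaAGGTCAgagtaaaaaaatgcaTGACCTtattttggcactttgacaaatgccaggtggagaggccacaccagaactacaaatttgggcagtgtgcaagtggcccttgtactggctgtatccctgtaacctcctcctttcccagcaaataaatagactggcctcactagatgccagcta

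Both promoters hold AGGTCA on each strand, 176 and 155 bases before the start in Cyp3a25 and 177 and 156 bases before it in Cyp3a59. Searched on both strands, AGGTCA was found in 4 of 8 members (Cyp3a11, Cyp3a25, Cyp3a44, Cyp3a59) and in 13.8% of 27025 promoters of the same length. AGTTCA was found in 3 of 8 (Cyp3a11, Cyp3a41a, Cyp3a41b) and in 11.9% of promoters. Direct repeats of AGGTCA or AGTTCA spaced by 1, 3 or 4 bases, everted repeats spaced by 6 bases, TTC and GAA spaced by 3 bases (7.18% of promoters) and the TEAD-type motif GGAATG (12.6%) were found in 0 of 8. A match is a description of letters in this window and no site.

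Among genes outside the family, those whose log2 CPM followed a member most closely over the 9 libraries were found by Pearson's r, as a description. Nearest to Cyp3a11 were Rab30 (r = 0.96), Itga8 (0.95) and Tff3 (0.95). Tff3, a secreted trefoil peptide, had 30.1, 95.7 and 69.8 CPM across the WT libraries, 1.10, 8.96 and 6.57 CPM across YAP, and 11.1, 1.49 and 7.0 CPM across YAP_Lsd1ko. It thus had the same lowest library in each group as Cyp3a11. Nearest to Cyp3a13 were Rbp4 (0.94), Fgb (0.93) and Fuom (0.91), and nearest to Cyp3a25 were Dmxl2 (0.97), Slc25a40 (0.96) and Serpina3m (0.95). Nearest to Cyp3a44 were Naip6 (0.97), Arg2 (0.96) and Fam76b (0.95), and nearest to Cyp3a59 were Fam13b (0.98), Hspa4l (0.98) and Rnd2 (0.97). Within the family r was 0.78 for Cyp3a25 with Cyp3a59, 0.73 for Cyp3a13 with Cyp3a25 and -0.61 for Cyp3a11 with Cyp3a59. All of these share the same 9 libraries and their scaling.

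The genes that switch on, supply or accompany CYP3A were then read as 3 lists with 72 genes, 66 of them tested. In YAP against WT 6 rose, or 9.09% beside 7.44% of all tested genes, and 15 fell, or 22.7% beside 10%. The share that rose was thus close to that of all genes. The lists were chosen with earlier results of these data known, so these shares are a description. The median log2 fold change was -0.49 beside 4.13e-05 for all tested genes. In YAP_Lsd1ko against YAP 3 rose and 1 fell (4.55% and 1.52%, all genes 1.75% and 0.367%), with a median of 0.27 (all genes -0.01). In YAP_Lsd1ko against WT 2 rose and 1 fell (3.03% and 1.52%, all genes 1.12% and 0.927%), with a median of -0.20 (all genes -0.00). With every replicate 3 left out 0 of them passed in any direction (edgeR), while 6, 12, 5, 1, 4 and 3 had an unadjusted p under 0.05, in the order just given.

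Of the regulators, 24 of 28 were tested, and 1 rose and 5 fell in YAP against WT (4.17% and 20.8%). Nr1i2, which encodes PXR, had 73.1, 66.2 and 69.8 CPM across the WT libraries, 39.4, 45.2 and 39.5 CPM across YAP, and 44.1, 52.3 and 53.8 CPM across YAP_Lsd1ko. YAP lay below both other groups except for YAP replicate 2, which lay above YAP_Lsd1ko replicate 1. Nr1i2 fell 1.68-fold in YAP (log2 fold change -0.75, SE 0.11, edgeR adjusted p = 0.00353). Nr1i3, which encodes CAR, had 152, 51.7 and 88.1 CPM across the WT libraries, 3.93, 10.8 and 6.08 CPM across YAP, and 4.27, 30.9 and 15.3 CPM across YAP_Lsd1ko. It fell 13.9-fold in YAP against WT (log2 fold change -3.80, SE 0.71, edgeR adjusted p = 0.00896). The library that had the most Nr1i3 in YAP_Lsd1ko, the one labelled replicate 2, had the least Cyp3a11.

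Nr0b2, the corepressor SHP, fell from 3.21 ± 1.61 CPM in WT to 0.479 ± 0.107 CPM in YAP (log2 fold change -2.70, SE 0.49, edgeR adjusted p = 0.0069). It rose again in YAP_Lsd1ko against YAP, to 4.52 ± 0.607 CPM (log2 fold change 3.19, adjusted p = 0.015). The bile acid receptor Nr1h4 (-0.58, adjusted p = 0.0147) and Ppara (-0.69, adjusted p = 0.0406) fell in YAP as well. Cux2, a female-biased repressor of liver genes, rose from 0.497 ± 0.179 to 9.54 ± 5.57 CPM (log2 fold change 4.22, SE 0.56, edgeR adjusted p = 0.00198). In YAP_Lsd1ko it fell to 2.19 ± 0.697 CPM against YAP (-2.11, adjusted p = 0.0493). That call was kept in 2 of 9 fits with 1 library left out, those without YAP replicate 2 and without YAP_Lsd1ko replicate 1.

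Of 15 genes of electron supply and haem synthesis, all tested, 6 fell, 0 rose and 9 did not pass in YAP against WT (median log2 fold change -0.56; all genes 10% lower and 7.44% higher). Por, the reductase that feeds every microsomal P450, had 318, 230 and 277 CPM across the WT libraries, 164, 120 and 122 CPM across YAP, and 116, 200 and 104 CPM across YAP_Lsd1ko. It fell 2.03-fold in YAP (log2 fold change -1.02, SE 0.26, edgeR adjusted p = 0.0262), and the call was lost when WT replicate 1 or 3 or YAP replicate 2 or 3 was left out. Both cytochrome b5 genes fell, Cyb5a from 1274 ± 253 to 576 ± 52.0 CPM (-1.15, adjusted p = 0.019) and Cyb5b from 173 ± 12.5 to 66.0 ± 10.6 CPM (-1.39, adjusted p = 0.000891). Pgrmc1, a haem-binding partner of P450 enzymes, fell from 228 ± 40.03 to 127 ± 11.2 CPM (-0.84, adjusted p = 0.0112). The haem synthesis genes Cpox (-1.43, adjusted p = 0.00561) and Uros (-0.88, adjusted p = 0.0483) fell too. In YAP_Lsd1ko against YAP Cyb5b was the 1 gene of the list to pass, with a rise (0.77, adjusted p = 0.0442).

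Other targets of PXR and CAR went both ways, with 5 of 27 tested higher and 4 lower in YAP against WT (18.5% and 14.8%). The efflux pump gene Abcb1a rose 9.39-fold, from 14.0 ± 5.20 to 132 ± 28.4 CPM (log2 fold change 3.23, SE 0.29, edgeR adjusted p = 0.000433), and its close relative Abcb1b rose as well (1.99, adjusted p = 0.0173). Both also passed in YAP_Lsd1ko against WT (2.61, adjusted p = 0.00564, and 2.78, adjusted p = 0.0191). The aldose reductase relative Akr1b7 (3.32, adjusted p = 0.0144), Gadd45b (3.32, adjusted p = 0.0198) and the organic anion carrier Slco1a4 (0.85, adjusted p = 0.0401) rose. Of the 11 tested P450 genes of other families in this list 4 fell and 7 did not pass, among them Cyp2b9 (0.10, adjusted p = 0.95) and Cyp2b10 (-2.21, adjusted p = 0.0794), a subset counted after its values were seen. Cyp1a2 went from 549 ± 24.0 to 43.5 ± 27.6 CPM (-3.66, SE 0.46, adjusted p = 0.00183), and Cyp2c55 from 9.41 ± 0.625 to 1.31 ± 0.921 CPM (-2.83, adjusted p = 0.00344), with Cyp2c38 (-1.84, adjusted p = 0.0225) and Cyp2c29 (-5.11, adjusted p = 0.032) alongside. Thrsp, a gene of lipid synthesis that CAR can induce, was the 1 gene of this list to pass in YAP_Lsd1ko against YAP (3.60, adjusted p = 0.0481).

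Among the passing pathway genes of YAP against WT, Cux2, Nr0b2, Nr1i2, Nr1i3, Cpox, Cyb5b, Abcb1a, Cyp1a2 and Cyp2c55 kept the call in 9 of 9 fits with 1 library left out. Pgrmc1 and Akr1b7 kept it in 7 (lost without WT replicate 3 or YAP replicate 3). Nr1h4 and Abcb1b kept it in 6, Gadd45b in 5, Cyb5a and Cyp2c38 in 4, Ppara, Cyp2c29 and Slco1a4 in 3, and Uros in 2, and YAP replicate 3 was among the libraries that each of these needed. In YAP_Lsd1ko against YAP, Nr0b2 kept the call in 6 of 9 fits, Cyb5b in 2 and Thrsp in 1. In YAP_Lsd1ko against WT, Abcb1a kept it in 9, Abcb1b in 5 and Cyp2c55 in 3.

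Because several Cyp3a genes are sex-biased, lists of sex-biased liver genes were read beside them. Xist, the RNA of the inactive X chromosome, had 1 read in each of WT replicate 2 and YAP replicate 1 and 0 elsewhere, and the Y-linked Ddx3y had 925 to 1553 reads in every library. Of 20 male-biased genes, all tested, 16 fell and 0 rose in YAP against WT (all genes 10% and 7.44%), with a median log2 fold change of -3.60. In YAP_Lsd1ko against YAP 9 of them rose (all genes 1.75%). Serpina1e, a secreted protease inhibitor, fell from 4807 ± 2816 to 97.7 ± 20.2 CPM (-5.62, SE 0.49, edgeR adjusted p = 0.000324). Mup7 fell from 4872 ± 4726 to 0.242 ± 0.212 CPM (adjusted p = 0.00464), while Mup20 (-1.0, adjusted p = 0.0692) and Selenbp2 (0.16, adjusted p = 0.833) did not pass.

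Female-biased genes did not move in 1 direction. Of 11 tested among 19, 2 rose in YAP against WT (Fmo2 and Cux2, all genes 7.44%) and 2 fell (Prlr and Cyp17a1, all genes 10%). Fmo2 rose from 14.9 ± 2.41 to 76.5 ± 29.7 CPM (log2 fold change 2.35, SE 0.29, edgeR adjusted p = 0.00157). It fell in YAP_Lsd1ko against YAP (-1.55, SE 0.28, edgeR adjusted p = 0.0291), a call lost without WT replicate 3, YAP replicate 1, YAP replicate 3 or YAP_Lsd1ko replicate 3. Prlr lost its call in YAP against WT without WT replicate 1 or 3 or YAP replicate 2 or 3, and Cyp17a1 kept it in 2 of 9 fits with 1 library left out. Cyp2a4 (-1.24, adjusted p = 0.623), Cyp4a10 (-1.38, adjusted p = 0.1) and Trim24 (0.36, adjusted p = 0.265) did not pass.

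Markers of cell types were read in the same libraries. Pericentral hepatocytes are the zone where drug-metabolising P450 genes are mostly expressed. Of 11 tested pericentral markers 9 fell and 0 rose in YAP against WT, beside 10% and 7.44% of all genes. Their summed level ran from 6571 to 14648 CPM among WT libraries, from 651 to 853 CPM among YAP libraries and from 1542 to 7679 CPM among YAP_Lsd1ko libraries. Periportal markers summed to 17928 to 27778 CPM, 10439 to 14173 CPM and 12314 to 21324 CPM, with 5 of 10 lower in YAP. Hepatocyte markers as a whole summed to 179280 to 188721, 157595 to 234184 and 130643 to 181145 CPM, and 1 of 10 fell. Most of the hepatocyte sums was Alb alone, at 129025 to 136479, 128646 to 186692 and 83664 to 145768 CPM. Cps1 was the largest periportal marker (6123 to 16457 CPM over all libraries), and Cyp2e1 the largest pericentral one (249 to 10197 CPM). The sums thus lean on single genes. Among defining pericentral markers only Rhbg was at 0, in YAP replicates 1 and 3. The part of these zonal markers in the Cyp3a values was not tested.

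Other cell types were read in the same way, again beside 7.44% of all genes higher and 10% lower in YAP against WT. Macrophage markers summed to 526 to 1115 CPM (WT), 2347 to 2741 CPM (YAP) and 518 to 2418 CPM (YAP_Lsd1ko), and 4 of 10 rose in YAP (Clec4f, Timd4, Vsig4, Csf1r). Biliary markers summed to 84.4 to 139, 1088 to 1350 and 198 to 714 CPM, and 2 of 6 tested rose (Spp1 and Pkhd1). Most of the YAP sums was Spp1 alone, at 950 to 1146 CPM, while Krt19 and Epcam were at 0.737 to 10.5 CPM in every library. Endothelial markers summed to 1093 to 1123, 994 to 1175 and 1008 to 1033 CPM, with 2 of 10 higher and 1 lower in YAP. Stellate cell and fibroblast markers summed to 913 to 1655, 530 to 1075 and 699 to 1052 CPM, with 1 of 10 higher and 1 lower. For intestine, where Cyp3a13 is also expressed, Vil1 was at 0.123 to 2.40 CPM, and Cdx1 and Cdx2 had no reads. Cdhr2 of the same list had 0.325, 15.0 and 7.83 CPM across WT, 0.859, 1.40 and 0.486 CPM across YAP, and 65.5, 3.31 and 35.2 CPM across YAP_Lsd1ko. Of 3 tested intestinal markers 0 passed in YAP_Lsd1ko against YAP. The list summed to 139 to 171, 43.8 to 93.0 and 174 to 203 CPM, mostly from Fabp2, which hepatocytes may express as well. What share of the Cyp3a differences goes with these cell types was not tested.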

How the data were processed

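Total RNA of mouse liver with an RNA integrity number of at least 8 was depleted of ribosomal RNA and made into stranded libraries, per the labels' protocols. Per the submitters' processing notes, which give no versions, the tools were STAR, featureCounts and edgeR after bcl2fastq and FastQC, with the build mm10. The annotation behind STAR and its rule for multi-mapped reads are not given in the sources used here. Each of the 9 libraries has a deposited table of splice junctions with 9 columns, holding raw counts of unique and multi-mapped reads per junction and the longest overhang in bases. Gene-level tables were not used.

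Junctions were matched by position and strand to introns of GENCODE M21 (GRCm38). Of 289955 junctions read, 150261 belonged to exactly 1 gene and were summed per gene, and 1702 of several genes were left out. A read over several junctions counts at each. edgeR 4.0.16 (R 4.3.3) fitted all 9 libraries in 1 quasi-likelihood model by group, after filterByExpr (10897 genes) and TMM scaling, with Benjamini-Hochberg adjustment over all tested genes and a threshold of 0.05. SE is the absolute log2 fold change over the square root of the F statistic. Alternatives used DESeq2 1.42.0. Values and figures came from Python 3.11.15, pandas 2.3.3, numpy 2.4.6, scipy 1.17.1, Biopython 1.88 and matplotlib 3.10.9, and the fit was tested on simulated data.

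The members and all lists were chosen with earlier results of these data known. Genes named are all Cyp3a members, the up to 4 genes per pathway list with the smallest p in YAP against WT with Nr1i2, Nr1i3 and Por, the 3 genes most like each tested member, the 4 nearest protein-coding genes on each side, the 4 most read genes of each sex-biased list, sex chromosome genes and defining markers. Further passing list genes were named after their values were seen. A result of the female-biased list is not reported here, and its counts leave that gene out. Promoters were found for all 8 members in the RefSeq table.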

Additional observations from a re-analysis of the deposited data

Results flagged for a closer look

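Junctions outside STAR's annotation, which enter none of the comparisons above, carried reads inside the Cyp3a genes above the WT level. Of these, 4 lie in Cyp3a25 (GRCm38, chromosome 5). The junction from 145981547 to 145982483 had a mean of 19.29 CPM in YAP_Lsd1ko against 8.78 ± 1.53 CPM in WT, and that from 145977703 to 145978147 had 17.59 CPM against 9.45 ± 2.24 CPM. The junction from 145982618 to 145984869 had 5.953 CPM against 2.04 ± 0.264 CPM. The junction from 145996212 to 145998486 had 6.222 CPM against 1.33 ± 0.837 CPM in WT. Per 1000 annotated Cyp3a25 reads the first had 9.31 in WT, 10.5 in YAP and 11.5 in YAP_Lsd1ko, close to the course of the gene, whereas the last had 1.40, 1.16 and 3.64. In Cyp3a59 the junction from 146085851 to 146085928 had 1.363 CPM in YAP and 2.587 CPM in YAP_Lsd1ko against 0.158 ± 0.163 CPM in WT, from 0 to 2 reads per WT library. Per 1000 annotated Cyp3a59 reads this junction had 6.93 in WT, 8.77 in YAP and 8.34 in YAP_Lsd1ko, close to the course of the gene. None of these differences was tested.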

How the results depend on the processing

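Pathway genes passing numbered 6 (higher) and 15 (lower) in YAP against WT, 3 and 1 in YAP_Lsd1ko against YAP, and 2 and 1 in YAP_Lsd1ko against WT. With DESeq2, 23 were lower in YAP against WT, 7 higher in YAP_Lsd1ko against YAP, and 4 higher and 8 lower in YAP_Lsd1ko against WT. Scaling by library size alone, which shifted the median of all genes by 0.31, -0.14 and 0.17 on the log2 scale, gave 1 higher in YAP_Lsd1ko against YAP. Fitting only the 2 groups compared gave 1 higher and 2 lower in YAP_Lsd1ko against WT, and adding multi-mapped reads gave 0 lower in YAP_Lsd1ko against YAP. Without every replicate 3 all 6 were 0, and the cause was not tested. Leaving out 1 library at a time (for example without WT replicate 1) gave 2 to 6, 7 to 22, 0 to 9, 0 to 1, 1 to 3 and 0 to 6, in the same order. In YAP against WT, leaving out WT replicate 1 gave 3 higher genes and leaving out YAP replicate 3 gave 2. The lower ones were 7 when WT replicate 3 or YAP replicate 3 was missing and 9 when YAP replicate 2 was. In YAP_Lsd1ko against YAP, 9 were higher without YAP_Lsd1ko replicate 1, but 1 when WT replicate 3 was missing and 0 when YAP replicate 1, YAP replicate 3 or YAP_Lsd1ko replicate 3 was, and the 1 lower gene, Cux2, kept its call among these fits only without YAP replicate 2 or YAP_Lsd1ko replicate 1. In YAP_Lsd1ko against WT, 6 were lower without the library labelled YAP_Lsd1ko replicate 2, 2 without YAP replicate 1 or 2, and 0 without WT replicate 2 or 3, YAP replicate 3 or YAP_Lsd1ko replicate 1 or 3. The 2 higher ones were 1 when any WT replicate or YAP_Lsd1ko replicate 3 was missing.

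The replicate block gave 5, 10, 0, 0, 1 and 1 for the 6 counts, and beside the zeros in YAP_Lsd1ko against YAP stood 9 higher and 4 lower genes with an unadjusted p under 0.05. The numbers did not pair the samples: correlations of same-numbered deviations ran from -0.66 (WT with YAP_Lsd1ko, replicate 2) to 0.34 (WT with YAP, replicate 1). With multi-mapped reads added, the log2 fold change of Cyp3a44 reversed to -2.13 in YAP against WT and to 0.28 in YAP_Lsd1ko against YAP, because the shared intron 6 reads then count for both genes. Of 252 values of the members' log2 fold changes under alternatives, 242 moved by less than the spread between replicates, 8 moved by more and 2 are the reversals just given. Cyp3a11 in YAP against WT ranged from -3.04 to -2.01 and Cyp3a59 from 1.28 to 2.99. Of the values for named pathway genes, 537 kept the side of the threshold, 65 lost the call and 21 gained it. Direction was checked only for genes called in the fit described. Por in YAP_Lsd1ko against YAP, not called, went from 0.05 to -0.30 without the library labelled YAP_Lsd1ko replicate 2. Cyp3a16, Cyp3a41a and Cyp3a41b had so few unique reads that differences between groups were not detectable at this depth.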

Other observations

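Unannotated junctions from 145981547 to 145982483 and from 145982636 to 145984869 border a stretch of 152 bases within intron 11 of Cyp3a25 (chr5:145982484-145982635, GRCm38), and both had reads in every library. In all, 161 junctions missing from STAR's annotation or from GENCODE M21 lay within a single Cyp3a gene, with 3723 unique reads. Another 29 joined different Cyp3a genes, and they had 3 unique and 270 multi-mapped reads.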
